A study of Mus musculus with 3 samples.

Results

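The windows described here are stretches of 1 kb on the mouse autosomes whose RNA signal was higher in the oocytes of litter 3 than in those of litters 1 and 2. They were selected on the deposited values themselves: a window needed a mean of 10 CPM or more over the 3 litters, and a CPM in litter 3 at least 3 times that in litter 1 and in litter 2. CPM is the number of alignments in a window per 1e6 alignments of the library, obtained from the summed coverage divided by the alignment length of 72 bases. The rule found 773 windows among 10299 with a mean of 10 CPM or more, and among 300324 autosomal windows with any alignment.

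The study sequenced total RNA of ovulated oocytes, with 1 library for each of 3 litters and no second group. The females were superovulated, of mixed strain, and were LSD1 FL/FL (both alleles of Kdm1a, a histone demethylase gene, flanked by loxP sites) and negative for ZP3::Cre, the transgene with an oocyte-specific promoter that would delete the gene. The series calls the oocytes wild type. Eggs were collected by E0.5 and lysed, and the RNA was amplified with SPIA, an isothermal linear amplification, before Illumina library preparation. Whether each library held the RNA of 1 or of several females is not stated in the labels, and litter, library and sequencing lane cannot be told apart. The labelled cell type was not checked against marker genes, since the coverage is on mm9 and gene positions on that build were not used here.

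A fully grown oocyte has shut down most transcription, and the RNA of an ovulated egg is largely a store made earlier, from which translation runs until the embryo's own genes start. Transcripts of repeated elements and of gene families in many copies are part of that store. A short read from a sequence in several near-identical copies fits more than 1 place in the genome, so its signal can appear at each copy.

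The libraries held 35183199, 31787887 and 32028802 alignments in litters 1, 2 and 3. Of these alignments, 85.6%, 85.5% and 85.2% began at a position already used by another alignment of the same library. Under an unchanged rule, 7.51% of the windows tested were raised in litter 3, against 0.146% raised in litter 1 (15 windows) and 0.437% raised in litter 2 (45 windows). The opposite direction was as frequent, with 805 windows (7.82%) in which both other litters were at least 3 times litter 3. Litter 3 thus stood apart from the other litters in the number of raised windows. Lowered windows were not counted for litters 1 and 2, so the 7.82% has no such reference. Set against litter 2 alone, with litter 1 left out, the rule gave 1472 windows, and against litter 1 alone, with litter 2 left out, 1236. The values of litter 3 chose these windows, so their levels are given as a description without a test. Litter 3 is also a single library, so its difference from the other litters has no replicate.

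The raised windows had a median of 11.1 CPM in litter 1, 8.95 CPM in litter 2 and 48.7 CPM in litter 3. The other 9526 windows of 10 CPM or more had medians of 20.9, 22.1 and 21.1 CPM. At an equal threshold on the mean, the raised windows were lower in litters 1 and 2 and higher in litter 3 than the others. The rule itself places litters 1 and 2 below a window's mean and litter 3 above it. This contrast therefore follows from the selection. Together they held 2.04% of the library of litter 1 (95% Wilson interval 2.03 to 2.04), 1.80% of that of litter 2 (1.80 to 1.81) and 9.84% of that of litter 3 (9.83 to 9.85). These intervals cover counting error only, since amplified reads without molecular identifiers are not independent molecules. The other windows of 10 CPM or more held 77.0%, 77.1% and 65.5%.

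The ratio of litter 3 to the higher of litters 1 and 2 had a median of 4.01 and quartiles of 3.43 and 5.47. It was at least 5 in 231 windows, at least 8 in 66 and at least 10 in 27. Many windows lay near the limit: 224 raised windows had a ratio from 3 to under 3.5, and 419 windows outside the rule had one from 2.5 to under 3. The 3 windows just inside were chr2:166832001-166833000 (9.03, 9.10 and 27.3 CPM in litters 1, 2 and 3), chr2:170172001-170173000 (8.45, 7.73 and 25.3 CPM) and chr17:17482001-17483000 (19.9, 9.13 and 59.7 CPM), with ratios of 3.000, 3.000 and 3.002. The 3 just outside were chr6:70080001-70081000 (5.23, 6.43 and 19.3 CPM), chr13:75786001-75787000 (8.02, 9.97 and 29.8 CPM) and chr12:111929001-111930000 (110, 113 and 338 CPM), with ratios of 2.998, 2.989 and 2.984.

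Litters 1 and 2 were close to each other in most raised windows. They lay within 2-fold in 693 of 773 (89.7%), against 91.2% of the other windows. Litter 1 was the higher of the pair in 533 raised windows (69.0%), with a median ratio of litter 1 to litter 2 of 1.15, whereas in the other windows it was higher in 45.4%, with a median ratio of 0.963.

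Raised windows occurred at every level. They made up 7.17% of the windows of 10 to 20 CPM, 7.27% at 20 to 50 CPM, 7.30% at 50 to 100 CPM, 10.3% at 100 to 200 CPM, 11.6% at 200 to 500 CPM and 7.84% from 500 CPM up. A few of them held much of their signal in litter 3, a share not set against the other windows here. The 10 raised windows of highest mean held 18.5% of the CPM that all raised windows had in litter 3, and the top 50 held 46.0%.

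**Figure D1:**
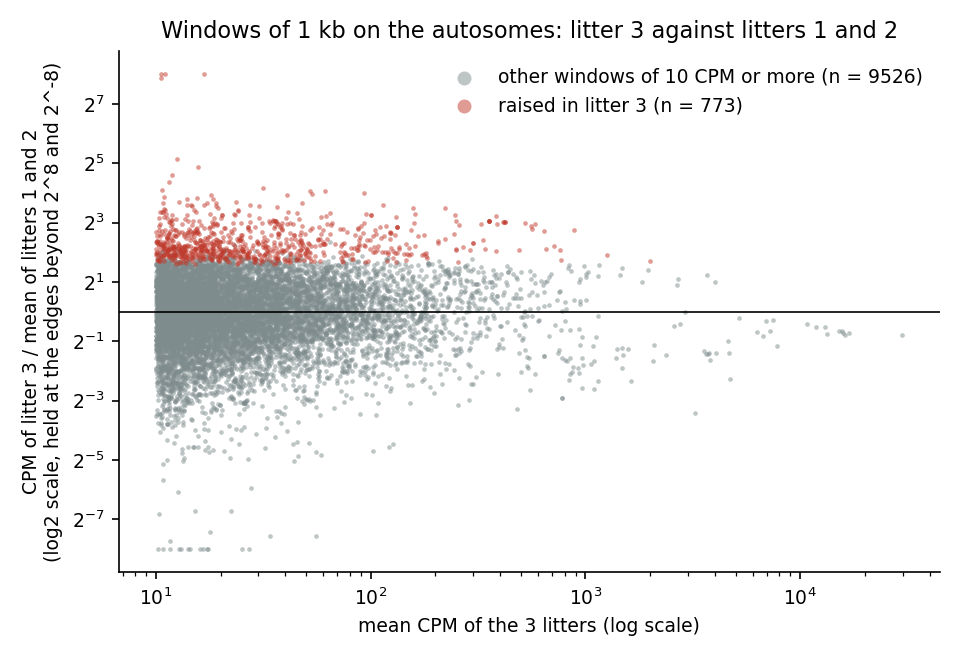
CPM of litter 3 over the average CPM of litters 1 and 2 (y axis, log2 scale) against the mean CPM of the 3 litters (x axis, log scale), 1 point per autosomal window of 1 kb with a mean of 10 CPM or more; red points are the 773 raised windows, grey points the other 9526, and the black line marks a ratio of 1. The raised windows extend over the range of mean levels up to 1987 CPM, and points beyond the drawn range, among them 3 raised windows at 0 in litters 1 and 2, sit at the edge.

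The raised window of highest mean, chr8:42078001-42079000, had 1207 CPM in litter 1, 1070 CPM in litter 2 and 3683 CPM in litter 3. Its alignments began at 549, 547 and 598 positions, so litter 3 used about as many positions as the others with more alignments at each. The window before it, which was not a raised window, held 215, 192 and 429 CPM, and the window after it 21.9, 40.1 and 10.03 CPM. The direction between litters thus turned within 2 kb.

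The second, chr16:17222001-17223000, had 610, 712 and 2469 CPM from only 79, 77 and 76 start positions. The 3 windows on either side of it held no alignment in any litter. In litter 3 a start position of this window carried 1040 alignments on average, against 272 in litter 1 and 294 in litter 2. The third, chr7:20648001-20649000, had 283, 327 and 2049 CPM from 150, 159 and 179 positions.

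The other 7 of the 10 lay on chromosomes 4, 5 and 7. On chromosome 7, chr7:20609001-20610000 had 457, 409 and 1448 CPM and chr7:15983001-15984000 had 340, 279 and 1340 CPM. On chromosome 4, chr4:44139001-44140000 had 410, 327 and 1551 CPM. Around it, the next window had 118, 99.2 and 340 CPM and lay just outside the rule, and the one 3 kb after it had 118, 109 and 80.7 CPM, lowest in litter 3. The 4 on chromosome 5 were chr5:95114001-95115000 (324, 323 and 1499 CPM), chr5:95772001-95773000 (236, 211 and 1481 CPM), chr5:94064001-94065000 (189, 170 and 1387 CPM) and chr5:94428001-94429000 (208, 171 and 1318 CPM), and they resembled each other in level and ratio. Of the alignments in these 4 windows, 86.6% to 97.5% lay in start patterns that recur elsewhere, as described below. The 4 are therefore not independent observations. In each of the 10 windows, litters 1 and 2 lay close together. Their distance from litter 3 is required by the rule.

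The windows of largest ratio were of another kind, since most had a low mean and almost no signal in litters 1 and 2. In 3 of them there was none. In chr16:14631001-14632000, litter 3 had 1605 alignments (50.1 CPM) from 445 start positions and both other litters had 0, so litter 3 was at least 531-fold higher, taking 3 counts per library as the floor (0.0853 CPM in litter 1 and 0.0944 CPM in litter 2). In chr12:99514001-99515000, litter 3 had 1062 alignments (33.2 CPM) from 230 positions, at least 351-fold above that floor, and the 2 windows before it held 36.7 and 154 alignments in litter 3 and 0 in the others. In chr9:41446001-41447000, litter 3 had 1020 alignments (31.8 CPM) from 128 positions, at least 337-fold above the floor. These 3 windows thus had more start positions than the second window by level, at a far lower CPM.

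The next was chr9:55557001-55558000, with 9.47, 0 and 1006 alignments in litters 1, 2 and 3 (0.269, 0 and 31.4 CPM). In the other 6, the ratio lay between 14.5 and 33.0. The highest of these was chr5:100390001-100391000, with 1.08, 0.937 and 35.7 CPM from 17, 16 and 33 positions. Next came chr10:20081001-20082000, with 2.12, 0.900 and 44.2 CPM, and the raised window before it had 5.78, 5.39 and 49.4 CPM. In chr7:21932001-21933000 the values were 15.2, 15.6 and 249 CPM, and in chr11:72492001-72493000 they were 6.82, 7.49 and 108 CPM. The window before the latter had 57.9, 109 and 83.3 CPM, with no excess in litter 3. In chr1:135005001-135006000 the values were 2.13, 0.575 and 33.0 CPM. The last, chr10:56218001-56219000, had 1.82, 1.49 and 28.6 CPM but only 9, 5 and 17 start positions, and it borders a window of 1155, 1360 and 3321 CPM, so alignments that began in that neighbour make up most of its coverage.

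**Figure D2:**
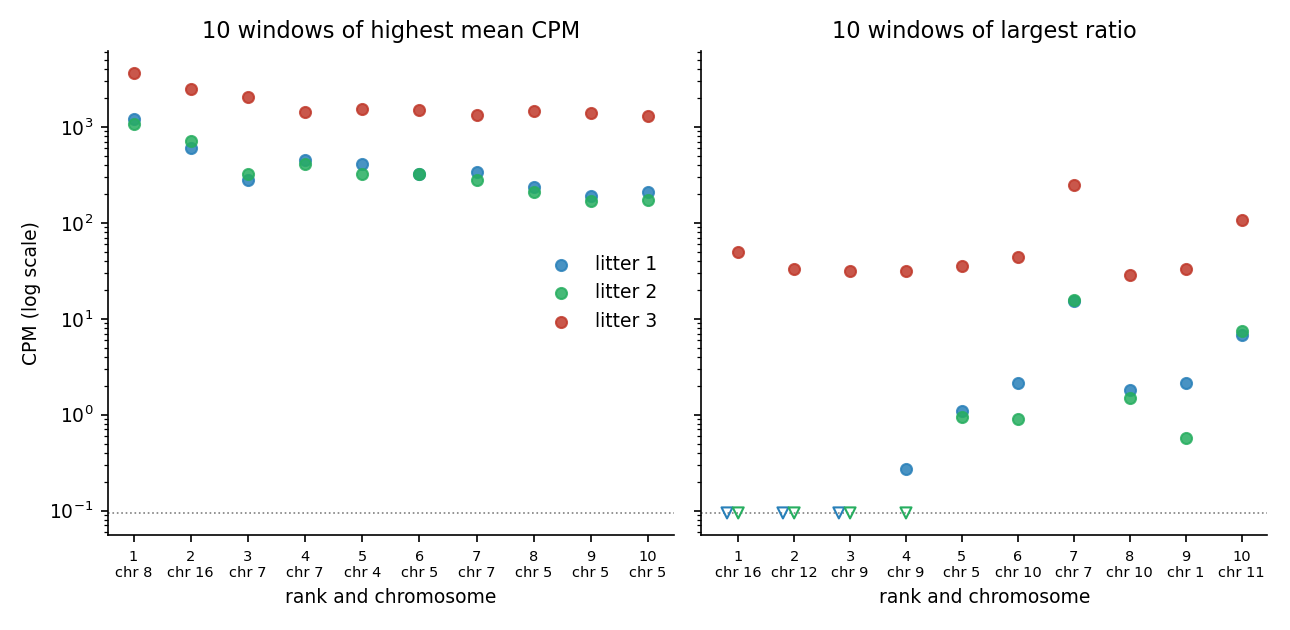
CPM (y axis, log scale) of the 10 raised windows of highest mean (left) and the 10 of largest ratio (right) in litters 1, 2 and 3, by rank with the chromosome named (x axis); filled circles are libraries, and open triangles on the dotted line stand for 0 alignments, drawn at the floor of 3 counts in litter 2 (0.0944 CPM). Litters 1 and 2 lie close together on the left, and 3 windows on the right are at 0 in both.

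Within a window the excess was spread over its start positions. Over all raised windows, 36727 positions had at least 20 alignments in the 3 litters together. Litter 3 was above both other litters, per 1e6 alignments, at 91.0% of them and at least 3 times both at 64.9%. In the 675 raised windows with at least 10 such positions, the median window had litter 3 above both others at 95.8% of its positions. The rule chose these windows for their level in litter 3, which also supplied most of the alignments counted toward the 20. High shares were thus favoured by the selection, and the other windows are not given for comparison. The excess did not always reach the fold limit along the whole window. Of 169 raised windows with a mean of 5 CPM or more in each stretch of 500 bases, 60 (35.5%) were at least 3 times both other litters in both stretches.

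Every autosome held raised windows. Their share of the windows tested ran from 4.84% on chromosome 8 (24 of 496) to 9.38% on chromosome 10 (45 of 480), around the 7.51% of all autosomes. Chromosomes 7, 16 and 17 followed with 9.19%, 9.12% and 9.05%, and chromosome 2 had 5.99% and chromosome 18 had 6.17%. Chromosome 1 had the most, 67 of 766. Over the genome, 540 of the 1744 megabases with a tested window held a raised one, and 390 of these held a single raised window.

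**Figure D3:**
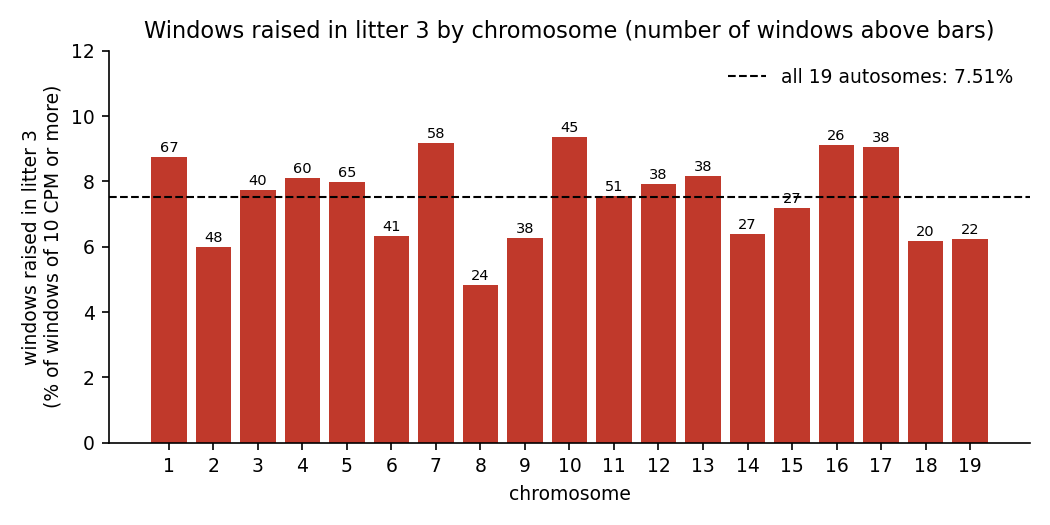
Raised windows as a percentage of the windows with a mean of 10 CPM or more (y axis) on each autosome (x axis), with the number of raised windows above each bar and the share over all autosomes, 7.51%, as a dashed line. Chromosome 8 is lowest at 4.84% and chromosome 10 highest at 9.38%.

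Most raised windows stood alone. Of the 773, 118 (15.3%) had another raised window within 5 kb, and 64 lay directly next to one. Joining windows at most 5 kb apart gave 710 stretches, of which 655 held 1 window, 48 held 2, 6 held 3 and 1 held 4. Signal nearby was as common as elsewhere: 58.3% of the raised windows had another window of 10 CPM or more within 5 kb, close to the 59.8% of all tested windows. A further 655 windows of 10 CPM or more lay within 5 kb of a raised one without being raised, so 15.3% of the tested windows with a raised window that near were raised, against 7.51% of all tested windows. Counted as pairs, the share of raised windows among the tested neighbours was 17.6% at 1 kb, 14.4% at 2 kb, 17.6% at 3 kb, 12.2% at 4 kb and 19.2% at 5 kb, with no steady course. Within the stretches of 2, the log2 ratios differed by a median of 0.30, against an SD of 0.54 over the raised windows with alignments in litter 1 or 2.

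The longest stretch, chr5:95113001-95117000, held 4 raised windows and summed to 389 CPM in litter 1, 397 CPM in litter 2 and 1922 CPM in litter 3. Its windows varied in ratio from 3.40 to 7.94. The stretch at chr5:95453001-95457000 held 3 and summed to 274, 259 and 1642 CPM. Both were largely made of sequence whose start pattern recurs elsewhere, as described below for chromosome 5.

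The other stretches of 3 had a median over their windows of 0% recurring alignments, except the one on chromosome 4, at 3.95%. In that one, chr4:146767001-146768000 had 91.8% recurring alignments and held 87.3 of its 155 CPM in litter 3. At chr1:183103001-183108000 the sums were 100, 76.0 and 403 CPM, and at chr6:149273001-149279000 they were 77.9, 58.4 and 307 CPM. At chr5:100390001-100394000 they were 52.4, 55.1 and 299 CPM, at chr13:46772001-46776000 43.1, 49.9 and 217 CPM, and at chr4:146764001-146768000 33.3, 14.5 and 155 CPM. In the last, litter 1 was also well above litter 2, whereas in the other stretches of 3 they differed little beside litter 3.

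The windows next to raised windows leaned the same way. Among 704 windows directly beside a raised window, with a mean of 1 CPM or more and not raised themselves, litter 3 over the average of the other litters had a median of 1.70 (quartiles 1.06 and 2.60), and 77.6% were above 1. Among the 400 of these with a mean of 1 to under 10 CPM the median was 1.76, and among the 4592 windows of that level beside the other windows of 10 CPM or more it was 0.987. The median levels of these last sets were 3.60 and 3.68 CPM, and 42 windows belonged to both. At the level of 1 to under 10 CPM, the excess narrowed with distance to 1.65 at 2 kb, 1.36 at 3 kb, 1.21 at 4 kb and 1.12 at 5 kb, against 0.929 to 1.02 near the other windows. It was 1.25 at 6 kb, 1.36 at 7 kb and 1.01 at 8 kb. Over all 49183 autosomal windows of 1 CPM or more that were not raised, the median was 0.924. An alignment that crosses a window border adds to both windows, which touches the value at 1 kb but not that at 2 kb or beyond.

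Windows of 10 CPM or more next to a raised window cannot reach the fold limit without being raised windows, so the limit was counted only among those of 1 to under 10 CPM. Of 400 such windows beside a raised window, 75 (18.8%) had litter 3 at least 3 times both others. The share was 6.77% beside the other windows of 10 CPM or more (311 of 4592) and 10.1% among all windows of this level (3996 of 39657). In 190 raised windows (24.6%) the mean was under 1 CPM on both sides, nearly the same share as the 24.4% of other windows.

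**Figure D4:**
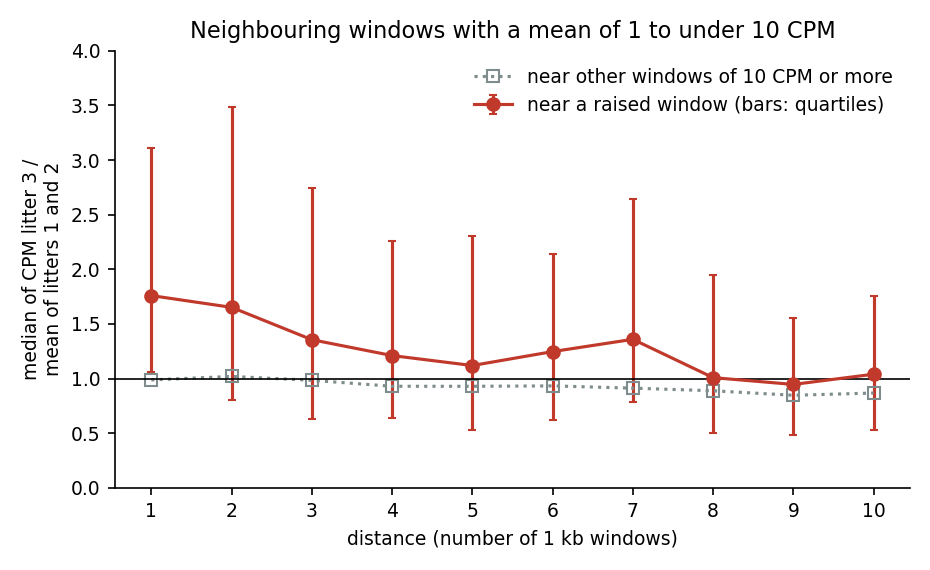
Median of the CPM of litter 3 over the average CPM of litters 1 and 2 (y axis) in windows with a mean of 1 to under 10 CPM by their distance in windows of 1 kb (x axis) from a raised window (red circles, bars from the lower to the upper quartile) or from another window of 10 CPM or more (grey squares). The red medians go from 1.76 at 1 kb to 1.12 at 5 kb, and the grey ones from 0.987 to 0.929.

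A number of raised windows carried the same pattern of starts as other places of the genome. A recurring run is a set of 3 start positions in a row, holding 50 or more alignments together, whose spacing and counts in all 3 litters are found at another place, on either strand. Such runs held 21.7%, 22.7% and 28.4% of the raised windows' alignments in litters 1, 2 and 3 (24.3% ± 3.62, SD, n = 3 libraries). In the other windows of 10 CPM or more the shares were 32.1%, 32.0% and 27.2% (30.5% ± 2.80, SD, n = 3). The order of litters was therefore opposite in the 2 sets, with litter 3 highest in the raised windows and lowest in the others. These shares are weighted by the alignments on which the rule selected. The largest groups sharing such runs, on chromosomes 7 and 5, had median ratios of 7.79 and 7.27, against 4.01 over all raised windows. The contrast between the sets is thus not separate from the selection. Most raised windows had no such run (545, or 70.5%, against 74.4% of the others), and 89 (11.5%, against 9.21%) had over 50% of their alignments in them.

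The 228 raised windows with a recurring run shared them with each other and with further places. The same runs occurred in 171 autosomal windows that were not raised, in 25 windows of the X chromosome and in 18 of unplaced or unlocalised sequence. Joining raised windows that share a run left 673 groups, of which 48 held 2 or more and together 148 windows. These windows are therefore not independent observations. In 5 sets, with 11 windows in all, the counts by leftmost base were equal in every litter: chr7:21646001-21647000 and chr7:22963001-22964000 both had 3420, 3484 and 27357 alignments.

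The largest group held 13 windows between positions 20648001 and 23990000 of chromosome 7. Their medians were 97.2 CPM in litter 1, 110 CPM in litter 2 and 854 CPM in litter 3, and their ratios ran from 6.27 to 16.0. The second held 9 windows between positions 94064001 and 96095000 of chromosome 5, with medians of 189, 159 and 1313 CPM and ratios from 4.62 to 9.10. The groups were alike in ratio but not in the number of starts, with 32 to 179 positions per window in litter 3 on chromosome 7 and 203 to 853 on chromosome 5.

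The third group was scattered, with 8 windows on 8 chromosomes. Its windows ran from 33.0 CPM in litter 3 at chr12:75600001-75601000 (6.09 and 3.56 CPM in litters 1 and 2) to 147 CPM at chr1:4869001-4870000 (25.3 and 22.1 CPM). The ratios kept to a narrow range, 5.30 to 6.65. The fourth group held 7 windows, 6 of them on chromosome 4 from position 145294001 to 146768000 and 1 at chr3:19836001-19837000. Here litter 1 was well above litter 2, with medians of 16.1 and 5.85 CPM, against 87.3 CPM in litter 3.

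On chromosomes 7, 5 and 4, 3 stretches of the genome were picked out after their values had been seen because they held several such groups. From chr7:20000001 to 24000000 there were 20 raised windows, 15 of them with over 50% recurring alignments, with sums of 1944, 2087 and 14025 CPM. They made up 14.3% of the CPM of all raised windows in litter 3. The other 21 windows of 10 CPM or more in these 4 Mb summed to 490, 467 and 384 CPM, so the difference between litters was not shared by the whole stretch. From chr5:94000001 to 97000000 there were 13 raised windows, 10 of them mostly recurring, with sums of 1685, 1537 and 10600 CPM (10.8%). The other 67 windows there also leaned to litter 3, with a median ratio to the higher of litters 1 and 2 of 1.88. From chr4:145000001 to 147000000 there were 15 raised windows, 10 of them mostly recurring, with sums of 180, 86.5 and 826 CPM. The other 47 windows of 10 CPM or more there held more signal, 1921, 2277 and 2230 CPM, with litter 3 between the other litters.

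In the median, raised windows had more start positions in litter 3 than other windows of equal mean. In litters 1 and 2 they had fewer. This did not hold at every level, as given below. The raised windows had a median of 122, 102 and 193 distinct starts in litters 1, 2 and 3. Each was compared with the median of the other windows in the same bin of 0.1 log2 of mean CPM, which could be done for 770 of them. The median ratio was 0.740 in litter 1, 0.661 in litter 2 and 1.19 in litter 3 (quartiles 0.668 and 1.67), and 59.7% had more starts in litter 3 than their bin. An equal mean over the litters implies a higher level in litter 3, since the rule picked it, so the comparison was repeated at equal CPM in the same litter. The ratios were then 1.05 in litter 1 (722 windows), 1.02 in litter 2 (724 windows) and 0.759 in litter 3 (753 windows). At its own level, litter 3 thus had fewer start positions in the raised windows than in other windows, and the direction turned with the way of matching.

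The alignments per start showed the counterpart. The raised windows had a median of 3.19, 2.85 and 9.79 alignments per start in litters 1, 2 and 3. Relative to windows of equal mean these were 0.635, 0.561 and 2.01, and relative to windows of equal CPM in the same litter 0.950, 0.990 and 1.29. Over the raised windows, litter 3 was a median of 4.66 times the average of the other litters in CPM, 1.48 times in start positions and 3.05 times in alignments per start. More alignments at each start thus made up the larger factor. The windows were chosen for their CPM ratio, and windows raised in litter 1 or 2 were not split in this way. Whether the split is particular to litter 3 was therefore not tested.

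Litter 3 had the most start positions in 725 raised windows (93.8%), against 40.5% of the others. It had at least 3 times the starts of both other litters in 13 of the 773, against 24 of the 9526 others. The rule selected these windows for more alignments in litter 3, which favours more start positions there. Neither contrast is thus separate from the selection. When each start position was counted once, 202 of 23528 windows were at least 3 times both litters, of which 13 were among the 773. Most alignments of litter 3 lay at positions that another litter also used, with a median of 90.6% per raised window. Windows of equal mean had 89.8% and windows of equal CPM in litter 3 had 93.3%, and 218 of 753 raised windows were above the latter. The highest single position held a median of 5.18% of the window's alignments in litter 3, against 4.72% in litter 1 and 4.97% in litter 2. Windows of equal mean had 4.52% in litter 3 and windows of equal CPM in litter 3 had 4.05%. Of 753 raised windows, 525 were above the latter. Relative to windows of equal CPM in the same litter, the median ratio was 0.976 in litter 1, 0.993 in litter 2 and 1.30 in litter 3.

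The pattern differed by level. From 10 to 20 CPM, the 345 raised windows had a median of 160 starts in litter 3 against 117 in the other windows, and 92 against 128 in litter 1. In litter 3 the medians were 246 against 253 from 50 to 100 CPM, and 318 against 320.5 from 100 to 200 CPM. From 200 to 500 CPM, the 30 raised windows had 244.5 against 454 in litter 3, with 72.4 alignments per start against 22.1. The 12 raised windows from 500 CPM up had 647.5 starts against 241 in litter 3. They also had more in litter 1 (566 against 249) and in litter 2 (539.5 against 243). This band has no upper limit, and the means reached 1987 CPM in the raised windows and 29898 CPM in the others. Its sets are therefore not matched in level. By size of the ratio, the 384 windows with a ratio of 3 to 4 had a median of 141, 116 and 211 starts, and the 66 windows with a ratio of 8 or more had 63.5, 60 and 156.

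**Figure D5:**
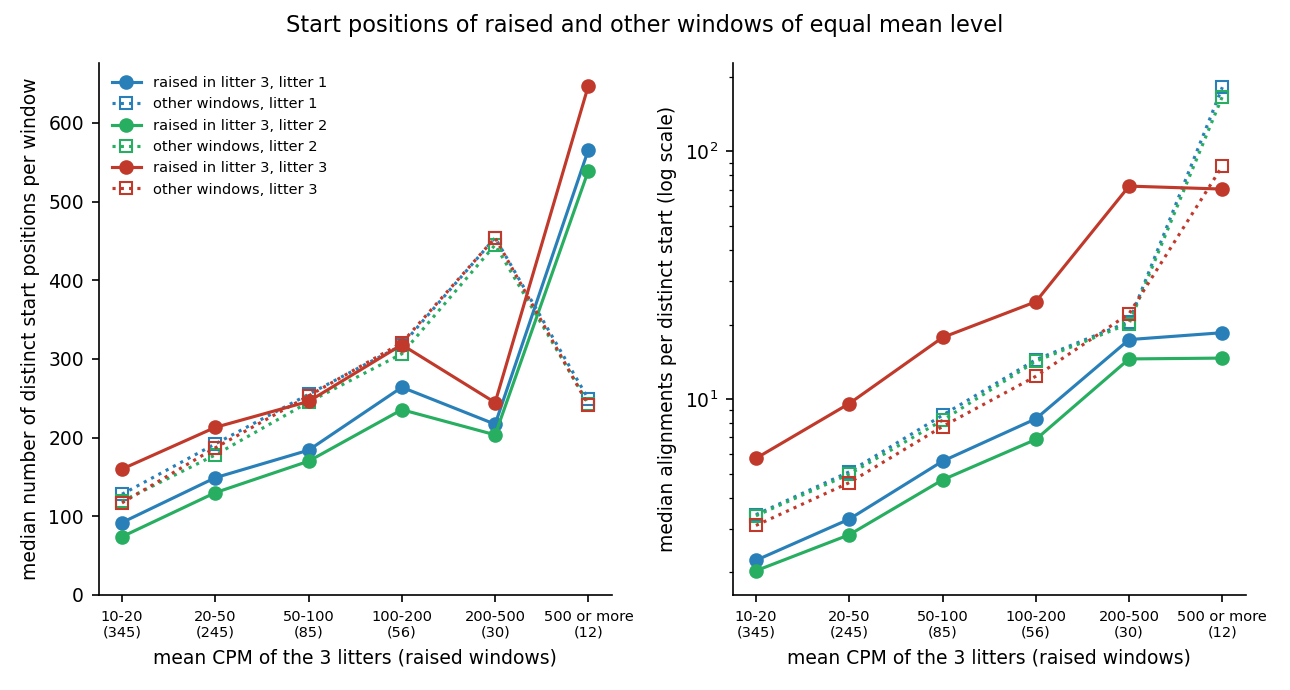
Median number of distinct start positions per window (left) and median alignments per start (right, log scale) against the mean CPM of the 3 litters in 6 bands (x axis, number of raised windows in brackets), for raised windows (filled circles) and the other windows of 10 CPM or more (open squares) in each litter. Litter 3 of the raised windows lies above the other litters in both panels at every band.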

How the data were processed

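RNA-seq of 3 litters of ovulated oocytes was deposited as 1 coverage track per library, and this signal is the number of alignments over each base, not scaled to depth, per the file headers. Reads were aligned with Bowtie to mm9 per the submitters' processing notes, and how many placements a read could have is not given in the sources used here. The tracks come from sorted alignments of lanes 3, 4 and 8, as their headers say.

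Coverage was turned into start positions and counts of 72-base alignments (0 negative values and 99.9% of isolated blocks 72 bases long), and then into CPM over each library's alignments, with numpy 2.4.6, pandas 2.3.3, scipy 1.17.1 and numba 0.67.0. Computations were tested on simulated data. With 1 group and 1 library per litter, no test was fitted. Named windows are the 10 of highest mean, the 10 of largest ratio, the longest stretches (7, through ties) and 3 on either side of the fold limit. The windows, lists and rule were chosen with earlier results of these data known. Gene lists, cell type markers and sequences need mm9 positions and were not analysed here. Coordinates are 1-based.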

Additional observations from a re-analysis of the deposited data

Results flagged for a closer look

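The same rule found raised windows outside the autosomes, in sequence outside the comparisons above. On the X chromosome, 49 of 470 windows of 10 CPM or more (10.4%) were raised in litter 3 and 30 were lowered. Their median was 11.7 CPM in litter 1, 10.9 CPM in litter 2 and 60.9 CPM in litter 3. On the mitochondrial chromosome, 1 of 17 windows was raised, with 1838, 1452 and 5649 CPM. In unplaced or unlocalised sequence, 10 of 129 windows (7.75%) were raised, with medians of 28.4, 24.4 and 111 CPM.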

How the results depend on the processing

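Of 42 alternatives to the 5 main values, 22 stayed near the main value, meaning within 1.5 times for the count of windows, within 1 SD over the libraries for the share in recurring runs, and within the 95% binomial interval over windows for the rest, which is narrow for medians. The count of 773 raised windows became 1840 with a fold limit of 2, 231 with a limit of 5, 1368 from 5 CPM up, 428 from 20 CPM up and 202 with each start position counted once, and was 1236 to 1472 with 1 litter left out. The same rule gave 15 windows for litter 1 and 45 for litter 2. The share with another raised window within 5 kb, 15.3%, was 8.28% for adjacent windows only, 24.5% within 50 kb, 28.7% with a fold limit of 2, 7.79% with a limit of 5 and 18.9% to 21.0% with 1 litter left out. The start ratio of litter 3, 1.19, was 0.759 at equal CPM in litter 3, 1.31 over positions with at least 2 alignments and 1.04 to 1.21 with 1 litter left out. The median ratio beside raised windows, 1.70, was 1.45 within 5 kb, 1.42 across a gap of 1 window and 1.66 to 1.73 with 1 litter left out. The share of alignments in recurring runs, 24.3%, was 21.1% to 23.3% with 1 litter left out. Except for the count, the values with a litter left out, and the median without mostly recurring windows, were chosen after seeing the data. The cause of these changes was not tested, apart from limits and thresholds that select more or fewer windows by construction. Leaving out the 100 highest windows from the library total moved the median log2 ratio of litter 3 over all windows of 10 CPM or more from 0.05 to -0.18. It gave 739 raised windows among 14649 tested, against 773 among 10299, and 533 of the 739 were among the 773. The raised share of the windows tested was thus lower. No paired analysis was possible because all 3 libraries belong to 1 group. Counts of at least 30 alignments in litters 1 and 2 lay behind all but 9 of the raised windows.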
